A study of Arabidopsis thaliana with 128 samples.

Results

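The heat response described here is that of shoot stem cell nuclei in the *poliv* mutant of *Arabidopsis thaliana*. It was read from 16 of the 128 mRNA libraries of the series, chosen by sample type, day and genotype alone, with 8 from heat-stressed seedlings (*poliv* HS7) and 8 from control seedlings (*poliv* CS7). Plants of *poliv* carried the T-DNA allele *nrpda-3* of *NRPD1*, which encodes the largest subunit of RNA polymerase IV, and, like every plant used, the stem cell reporter *pCLV3::H2BmCherry* in the Col-0 background. Around day 7 after germination, seedlings were kept at 37 °C for 1 d (H) or stayed at 21 °C (C), and nuclei positive for mCherry and DAPI were sorted straight afterwards, with 100 nuclei per library. For comparison, the same reporter in plants without the *NRPD1* mutation (wt) gave 8 HS7 and 8 CS7 libraries, and whole above-ground seedlings of *poliv* gave 4 heat-stressed (HT7) and 3 control (CT7) libraries. As a model, *poliv* rests on a single T-DNA allele, and the sort takes the nuclei in which the *CLV3* promoter had made the reporter.

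Polymerase IV transcribes short precursors of the small interfering RNAs that guide DNA methylation to transposable elements (TEs) in the pathway of RNA-directed DNA methylation. Stem cells sit at the top of the shoot apical meristem, express the peptide gene *CLV3* and give rise to all shoot tissue, the germline included. In heat, plant cells activate heat shock transcription factors, which bind repeats of the pentamer nGAAn in inverted order and switch on chaperone genes, and the long terminal repeats of the copia retrotransposon *ONSEN* (ATCOPIA78) carry such binding sites too.

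Values are normalized counts, reads per feature after division by a factor for the depth of the library, and 3 values for a group of 8 libraries are its lowest, median and highest. A feature was called higher or lower in heat where limma gave an adjusted p under 0.05 and a log2 fold change beyond 1 in size, on the scale of log2(normalized count + 1), which understates the change of low features. HS7 libraries held 3002610 to 4779668 reads and CS7 libraries 2463504 to 4460152. At that depth, 17008 to 19200 nuclear genes had a read in HS7 and 19813 to 20970 in CS7 (two-sided exact permutation test, p = 0.000155, the smallest it can give with 8 libraries against 8). HS7 libraries also resembled each other less, with a mean correlation to their own group of 0.650 to 0.709, against 0.791 to 0.818 in CS7, and replicates 6, 7 and 8 of HS7 had the lowest values. Ribosomal RNA took 14.4 ± 4.61% of the reads in HS7 and 22.5 ± 3.63% in CS7 (SD, n = 8 each; exact permutation test, p = 0.0028). The sources used here do not say whether the libraries of a group came from separate plants or sorts, so p-values measure the spread between libraries. The part of these differences between libraries in the results below was not tested, and some counts are also given without these 3 HS7 libraries.

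The labels were set against the genes that define them. *NRPD1*, the mutated gene, had 2.18, 68.5 and 135 in *poliv* HS7 and 67.8, 137 and 201 in *poliv* CS7, while wt CS7 had 35.3, 82.4 and 131. The insertion thus did not remove the transcript, and a count over the whole gene does not check this allele. *NRPD1* fell by 1.59 on the log2 scale (limma adjusted p = 0.0158), a call that was lost with edgeR (adjusted p = 0.0582) and without the 3 HS7 libraries. The reporter transcript had 0.657, 7.57 and 129 in HS7 and 0, 12.5 and 46 in CS7, and *CLV3* had 0, 15.3 and 75.4 in HS7 and 0, 31.6 and 74.3 in CS7. Neither passed the test (log2 fold changes of 0.13 and -0.54, limma adjusted p = 0.928 and 0.664), and the libraries overlapped. *AGO9* and *AGO5*, Argonaute genes with high expression in shoot stem cells, were well above 0 in all 16 libraries and are described with their family.

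Heat changed a large part of the transcriptome of these nuclei. Of 18226 nuclear genes tested, 2182 (12%) were higher and 4046 (22.2%) lower in *poliv* HS7, and of 744 TEs, 132 (17.7%) were higher and 247 (33.2%) lower (2267 and 3886 genes and 115 and 256 TEs without the 3 HS7 libraries). In 746 of the higher genes (4.09% of those tested) and 1400 of the lower genes (7.68%), no HS7 library overlapped with a CS7 library, as in 55 higher (7.39%) and 104 lower TEs (14%). The excess of lower genes depended on the test. With edgeR on recovered reads, 2383 genes (13.1%) were higher and 2390 (13.1%) lower, and 133 TEs (17.9%) were higher and 179 (24.1%) lower. The higher genes were mostly shared, with 2048 called by both tools, while 1680 of the 4046 lower genes were not called lower by edgeR. DESeq2 on the same reads called 2463 genes higher and 2907 lower, among them 506 of these 1680, and 135 TEs higher and 210 lower. These 1680 had a median level of 16.9 in HS7 and 46.9 in CS7, below that of the 2366 genes that both tools called lower (25.4 and 125). The median log2 fold change over all 19186 tested features was -0.32 in limma, 0.04 in edgeR and -0.14 after scaling by the reads of nuclear genes, where 2670 genes were higher and 3398 lower. Each log2 fold change below can be read against that shift of -0.32. Likewise, each count of called list members can be read against the 12% higher and 22.2% lower among all genes.

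The genes and TEs of the largest rise and fall were picked among called features whose HS7 and CS7 libraries did not overlap. Their lack of overlap is thus the rule of selection and no result. Among genes picked in this way, those of the largest rise were mostly small heat shock protein genes. *HSP22.0* (AT4G10250, chr4:6370338-6371372, plus strand), which encodes a small heat shock protein of the endoplasmic reticulum, had 1311, 1571 and 1876 in HS7 and 0 in all 8 CS7 libraries. *HSP21* (AT4G27670, chr4:13818825-13819971, minus strand), a chloroplast chaperone, had 909, 1428 and 2303 in HS7 and was also at 0 in all CS7 libraries. Set against a floor of 3 reads over the control group, they were at least 3025-fold and at least 2836-fold higher, with fitted log2 fold changes of 10.61 ± 0.38 and 10.47 ± 0.41 (SE; limma adjusted p = 4.41e-19 and 2.27e-18). Every HS7 library thus held many transcripts of genes that were not detected in any control. Cytosolic members followed, with *HSP18.2* (AT5G59720) at 1791, 2096 and 3002 in HS7 and 0, 0 and 17.3 in CS7. *HSP17.4* (AT3G46230) had 274, 707 and 1202 in HS7 and 0, 0 and 1.65 in CS7. Their log2 fold changes were 10.13 ± 0.49 and 9.03 ± 0.50 (SE). *HSP17.6C* (AT1G53540, at least 1023-fold), *HSP17.6II* (AT5G12020, log2 fold change 8.47) and *HSP17.6B* (AT2G29500, 8.24) were of the same class.

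A further 3 of the 10 genes with the largest rise encode no chaperone. *AT2G18190*, annotated as a P-loop nucleoside triphosphate hydrolase, had 205, 450 and 1133 in HS7 and 0 in all CS7 libraries, at least 1039-fold higher. *AT2G18180*, a Sec14p-like phosphatidylinositol transfer protein gene, had 110, 172 and 300 in HS7 and likewise 0 in all CS7 libraries, at least 364-fold higher. They are direct neighbours on the minus strand (chr2:7913955-7915872 and chr2:7910703-7913861). *AT3G59730*, a lectin protein kinase gene, had 194, 278 and 429 in HS7 and 0 in all CS7 libraries, at least 549-fold higher. A stretch of 7.87% of this gene has near-identical copies at other genes, such as *AT1G11270* and *AT1G48720*. Whether its counts hold reads of such copies was not tested. That these genes did not overlap between the groups follows from how they were picked.

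At the other end stood genes that nearly vanished in heat. *AT1G17990*, an FMN-linked oxidoreductase gene, had 0, 0 and 0.657 in HS7 and 914, 1254 and 1816 in CS7 (log2 fold change -10.21 ± 0.41, SE; limma adjusted p = 5.49e-18). Its near-identical copy *AT1G18020* had 0, 0 and 45.4 in HS7 and 707, 1058 and 1627 in CS7, and since reads of such copies may be split between them, the 2 values are not independent. *LpxC4*, of lipid A-like synthesis and with 3 further copies of the same sequence, was at 0 in all HS7 libraries and had 652, 879 and 1018 in CS7. *SNG1*, which makes the sunscreen sinapoylmalate, had 0, 2.58 and 13.5 in HS7 and 885, 1019 and 1116 in CS7 (log2 fold change -8.13 ± 0.50). *PAR1* (-8.08), an atypical bHLH factor of shade responses, *BZIP34* (-8.29), *SEN1* (-8.02), induced by darkness, *AT2G20670* (-8.50), *AT5G16030* (-8.29) and *AT5G06980* (-8.02) completed the list. In all 10 the lowest CS7 library was above the highest HS7 library, which follows from the rule of selection.

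**Figure D1:**
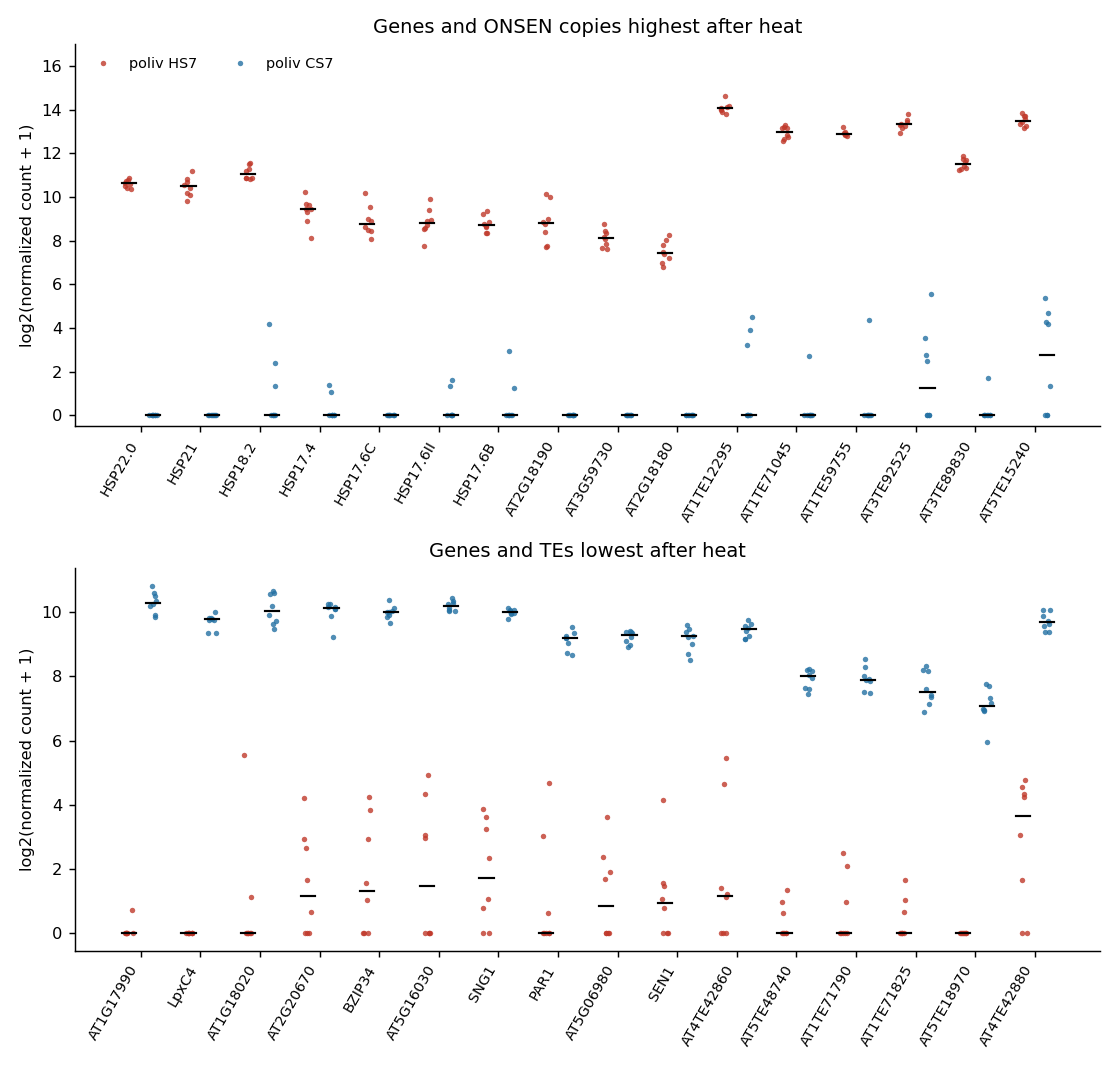
Normalized counts of single libraries, as log2(normalized count + 1), for the 10 genes and 6 TEs of the largest rise (upper panel) and of the largest fall (lower panel) in *poliv* stem cell nuclei, with 8 HS7 libraries left of 8 CS7 libraries and bars at the medians. The features were picked among called ones whose groups do not overlap, and for *HSP22.0*, *HSP21* and *HSP17.6C* all 8 CS7 dots lie at 0.

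As a family, small heat shock proteins, which hold unfolding proteins in a soluble state, rose with few exceptions. Of 13 cytosolic and nuclear members, 11 were higher and 2 lower with a median log2 fold change of 5.65, against 12% higher and 22.2% lower among all genes. Summed over the list, HS7 libraries had 4041, 4542 and 8251 normalized counts and CS7 libraries 286, 462 and 562. The 2 exceptions were *HSP15.4* (AT4G21870), with 0, 13 and 57 in HS7 and 222, 293 and 350 in CS7 (log2 fold change -4.89), and *HSP21.7* (AT5G54660), with 0, 15 and 27.4 in HS7 and 20, 66.2 and 95.9 in CS7 (-2.34). The smallest rise, of *HSP17.4III* (AT1G54050, 2.11), was not called by edgeR (adjusted p = 0.0937). Of 5 tested members of chloroplast, mitochondria and endoplasmic reticulum, 4 were higher (5 without the 3 HS7 libraries), with a median of 7.41. *HSP23.6* (AT4G25200), a mitochondrial member, had 108, 153 and 368 in HS7 and 0 in all CS7 libraries, and its relative *HSP23.5* (AT5G51440) had 62.5, 151 and 280 in HS7 and 0, 2.37 and 29.3 in CS7. *HSP26.5* (AT1G52560) had 0, 6.51 and 26.9 in HS7 and 0, 0 and 14.9 in CS7, and did not pass the test (log2 fold change 1.55, limma adjusted p = 0.151).

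The promoters of 4 strongly induced genes are printed to show how differently the binding motif of heat shock factors is spread among them. Each is the stretch of 250 bases before the annotated start (RefSeq, assembly TAIR10.1), written 5′ to 3′ on the strand of the gene. Capitals mark every match to GAANNTTC or TTCNNGAA, which are palindromes and so read alike on both strands, and overlapping matches merge into longer runs. *HSP17.4* lies at chr3:16984868-16985117 (minus strand), *APX2*, a cytosolic ascorbate peroxidase gene, at chr3:2955906-2956155 (plus), *HSP21* at chr4:13819972-13820221 (minus) and *HSP22.0* at chr4:6370088-6370337 (plus).
HSP17.4: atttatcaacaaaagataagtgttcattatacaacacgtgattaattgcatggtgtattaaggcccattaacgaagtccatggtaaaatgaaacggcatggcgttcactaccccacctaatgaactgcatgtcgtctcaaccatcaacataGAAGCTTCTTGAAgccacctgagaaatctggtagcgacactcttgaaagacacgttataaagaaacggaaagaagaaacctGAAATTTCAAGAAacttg
APX2: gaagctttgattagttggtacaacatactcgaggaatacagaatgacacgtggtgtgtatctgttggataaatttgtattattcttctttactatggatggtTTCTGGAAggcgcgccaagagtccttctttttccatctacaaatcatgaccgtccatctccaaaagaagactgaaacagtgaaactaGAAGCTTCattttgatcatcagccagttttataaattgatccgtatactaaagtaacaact
HSP21: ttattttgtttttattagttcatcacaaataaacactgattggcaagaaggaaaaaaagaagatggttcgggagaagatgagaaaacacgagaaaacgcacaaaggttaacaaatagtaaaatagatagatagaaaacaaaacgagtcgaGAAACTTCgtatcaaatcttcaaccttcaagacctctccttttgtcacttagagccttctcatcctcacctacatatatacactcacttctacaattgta
HSP22.0: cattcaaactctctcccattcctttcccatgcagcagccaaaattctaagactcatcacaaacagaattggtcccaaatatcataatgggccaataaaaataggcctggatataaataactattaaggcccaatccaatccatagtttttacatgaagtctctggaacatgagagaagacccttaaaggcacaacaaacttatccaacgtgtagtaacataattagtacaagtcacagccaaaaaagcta

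*HSP17.4* had 4 matches, which begin 99, 94, 18 and 13 bases before the start and form 2 runs of 3 repeats each. *APX2* had matches at 148 and 61 bases and *HSP21* a match at 100 bases before the start. *HSP22.0*, the gene of the largest log2 fold change among those without overlap, had no match in this window. Windows of other heat genes were read but not printed. Those of *HSP18.2*, *HSP101*, *HSP90.1*, *HSP70-4* and *ROF2* held no match, and that of *HSP17.6C* held 2. The windows of *HSP18.2*, *HSP101*, *HSP90.1* and *HSP17.6C* overlap with another annotated gene, so they are not free of transcribed sequence. Over the 27443 promoters of this length, 9.55% held GAANNTTC, 7.68% held TTCNNGAA and 0.386% held a run of 3 repeats (GAANNTTC followed by NNGAA, or TTCNNGAA followed by NNTTC). Among 2123 promoters of genes called higher the shares were 9.09%, 7.77% and 0.518%, and among 3909 promoters of genes called lower they were 9.11%, 7.93% and 0.435%. In the 126 promoters of genes with a log2 fold change over 4, 14 held GAANNTTC (11.1%), 13 held TTCNNGAA (10.3%) and 2 a run of 3 repeats (1.59%). Both of those 2 belong to the 13 promoters of cytosolic small heat shock protein genes, those of *HSP17.4* and *HSP17.6C*. A match is a description of these letters, and an empty window says nothing about binding.

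Larger chaperones rose less. Of 13 HSP70 genes tested, whose products fold and refold proteins with ATP, 9 were higher and none lower, with a median log2 fold change of 1.62. *HSP70-4* had 627, 773 and 1107 in HS7 and 15.3, 41.1 and 81.8 in CS7 (log2 fold change 4.37 ± 0.26, SE; limma adjusted p = 7.16e-14). *mtHSC70-1*, a mitochondrial member, had 615, 725 and 845 in HS7 and 26.5, 83.4 and 125 in CS7 (3.28 ± 0.25). *HSP70B* (2.97) and *HSC70-2* (2.69) rose as well, whereas the constitutive *HSC70-1* had 1377, 2151 and 3164 in HS7 and 2897, 3572 and 4166 in CS7, a log2 fold change of -0.75 that was below the threshold of size (limma adjusted p = 6.73e-06). Of 9 HSP90 and HSP100 genes, 4 were higher (5 without the 3 HS7 libraries). *HSP90.1*, the heat-inducible cytosolic HSP90, had 796, 997 and 1279 in HS7 and 52.7, 66.2 and 110 in CS7 (3.80 ± 0.19), followed by *HSP90.5* of the chloroplast (2.91), *HSP90.6* of mitochondria (2.28) and *CLPB3*, a chloroplast disaggregase (1.91). *HSP101*, the cytosolic disaggregase needed for acquired thermotolerance, had 62.9, 212 and 273 in HS7 and 50.2, 89.8 and 194 in CS7, and with a log2 fold change of 0.87 ± 0.31 it was not called. Its libraries overlapped between the groups, unlike those of the 4 genes that rose.

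Among 20 co-chaperones and genes of heat memory, 13 were higher and 1 lower (median 1.44), or 12 and none without the 3 HS7 libraries. *APX2*, a classical target of heat shock factors, had 70.8, 111 and 194 in HS7 and 0, 0 and 0.75 in CS7 (log2 fold change 6.74 ± 0.59). *ROF2*, an FKBP-type prolyl isomerase that modulates HSFA2, had 511, 889 and 1246 in HS7 and 58.4, 95.9 and 127 in CS7 (3.21 ± 0.21). *DREB2B* (4.65) and *DREB2C* (4.63), transcription factors of dehydration and heat responses, and *HSA32* (2.30), which prolongs acquired thermotolerance, also rose. *DREB2A*, upstream of *HSFA3* in the known cascade, had 2.19, 28.3 and 49.2 in HS7 and 0, 7.76 and 37.7 in CS7 and did not pass (1.14, limma adjusted p = 0.266). The gene that fell was *BAG7*, a co-chaperone of the endoplasmic reticulum (-1.16). Of 17 heat shock transcription factor genes tested, 5 were higher and 3 lower (3 and 3 without the 3 HS7 libraries), while edgeR called 5 higher and none lower. *HSFA3* had 112, 203 and 339 in HS7 and 3.37, 17.4 and 34.9 in CS7 (3.76 ± 0.44), the only factor gene of those named whose libraries did not overlap. *HSFA8* (3.05), *HSFA1E* (2.77), *HSFA6B* (2.73) and *HSFA2* (2.34) were higher at low counts, and the calls of *HSFA1E* and *HSFA2* were lost without the 3 HS7 libraries. *HSFA7A* (-3.23), *HSFB4* (-2.17) and *HSFA5* (-1.96) were lower in limma and not in edgeR, and *HSFC1* was at 0, 14 and 51.9 in HS7 and 4.3, 40.1 and 87.9 in CS7 (-1.55, not called).

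Folding genes of the endoplasmic reticulum changed less, with 5 of 23 higher and 2 lower, against 12% and 22.2% of all genes. The calnexin gene *CNX1* had 442, 659 and 1136 in HS7 and 142, 214 and 320 in CS7 (log2 fold change 1.56), and the calreticulin gene *CRT1B* rose similarly (1.40). Both lower calls, of *ERO2* (-1.50) and *ERDJ3B* (-1.42), and the higher call of the stress sensor gene *IRE1A* (1.47) were lost under many of the alternative settings, and edgeR called 7 higher and none lower. Of 18 genes that scavenge reactive oxygen, 3 were higher and 2 lower, also against 12% and 22.2% of all genes. *CAT2*, the catalase of photorespiring peroxisomes, had 101, 145 and 406 in HS7 and 440, 700 and 893 in CS7 (-2.13), and *CAT3* fell too (-1.35). The mitochondrial superoxide dismutase gene *MSD1* had 120, 189 and 311 in HS7 and 29.2, 48.6 and 67.8 in CS7 (1.95), and *ZAT12* (2.02) and *DHAR2* (1.55) were higher with overlapping libraries.

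**Figure D2:**
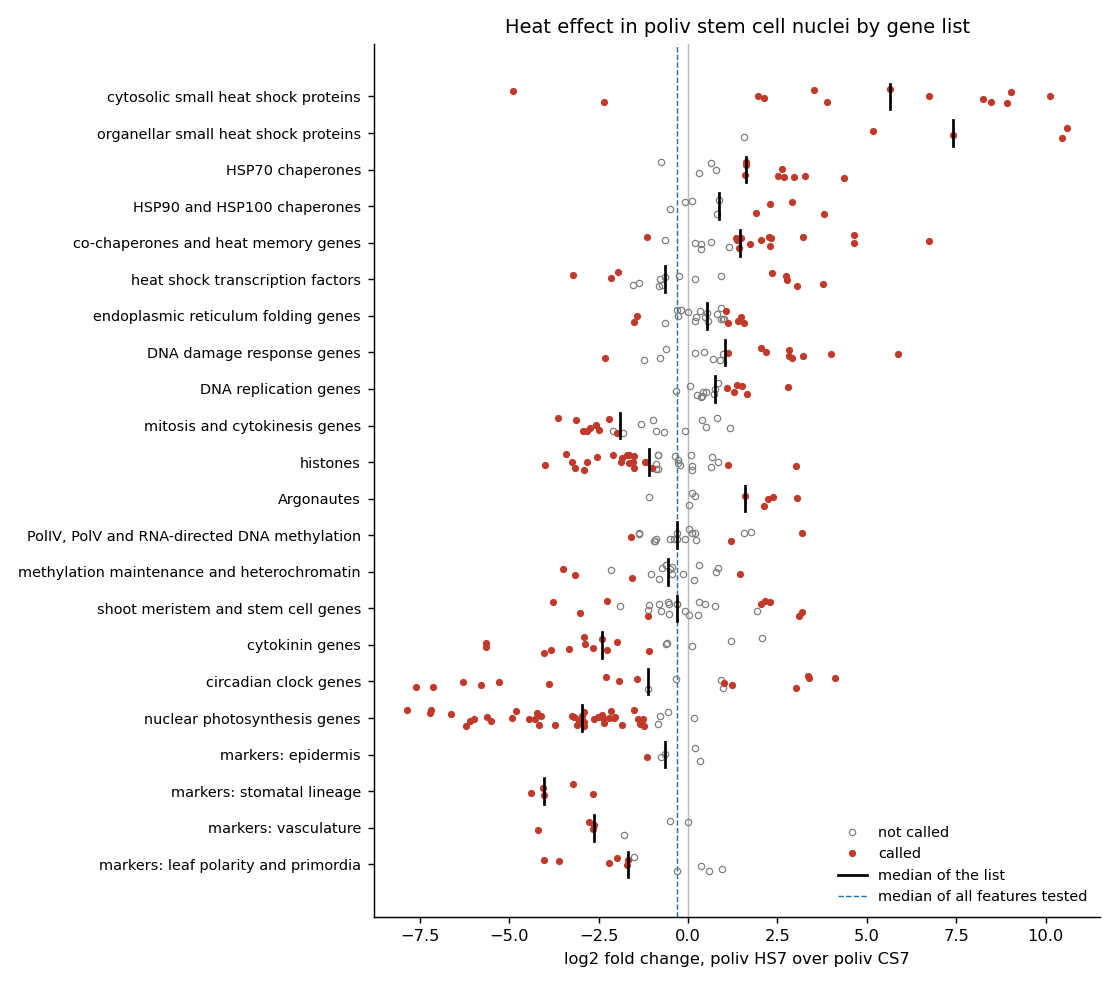
Log2 fold change in heat (*poliv* HS7 over *poliv* CS7) of every tested member of 22 gene lists, with filled dots for members called higher or lower, open dots for the others, a bar at the median of each list and a dashed line at -0.32, the median of all tested features. Small heat shock proteins lie to the right, photosynthesis and cytokinin genes to the left, and most other lists straddle the line.

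DNA damage genes were among the groups with more rises than falls, 9 higher and 1 lower of 18, with a median of 1.04 (12% of all genes were higher). *ANAC044*, a NAC factor that halts the cell cycle upon DNA damage and heat, had 136, 163 and 225 in HS7 and 0, 2.78 and 7.01 in CS7 (log2 fold change 5.88 ± 0.59, SE; limma adjusted p = 3.89e-09). Its relative *ANAC085* had 13.5, 22.3 and 85.9 in HS7 and 0, 0.562 and 3.31 in CS7 (3.99 ± 0.66). *GMI1*, induced by DNA double-strand breaks, had 294, 536 and 692 in HS7 and 32.4, 57.4 and 79.8 in CS7 (3.20 ± 0.24). For these 3 genes every HS7 library exceeded every CS7 library. *PARP2* (2.83), a poly(ADP-ribose) polymerase gene, and the cell cycle inhibitor gene *SMR7* (2.90) rose, while *BARD1* (-2.33) was lower in limma and not in edgeR.

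Of 16 genes of DNA replication, 6 were higher and none lower, against 12% and 22.2% of all genes. *MCM5*, a subunit of the replicative helicase, had 470, 791 and 1039 in HS7 and 51.3, 117 and 142 in CS7 (log2 fold change 2.79 ± 0.22). *TSO2* (1.52), *RNR2A* (1.38) and *RNR1* (1.10), subunits of the ribonucleotide reductase that makes deoxynucleotides, and *MCM2* (1.28) rose, and *PCNA1* (1.65) lost its call under many settings. Of 20 genes of mitosis and cytokinesis, none was higher and 9 were lower in limma and 4 in edgeR, against 22.2% and 13.1% of all genes (8 in limma without the 3 HS7 libraries). *TPX2*, a spindle assembly factor, had 0, 8.96 and 25 in HS7 and 37.1, 85.7 and 154 in CS7 (-3.65 ± 0.71), and *CYCA3;1* fell as well (-2.83). *AUR1* (-3.13), an Aurora kinase gene, and *CYCB2;2* (-2.93) were not called by edgeR. Of 36 histone genes, 2 were higher and 19 lower (15 in edgeR), with a median of -1.10. *HTA11*, an H2A.Z gene, had 0, 12.3 and 50.6 in HS7 and 102, 150 and 253 in CS7 (-4.01), and *HTA6* had 0, 14.6 and 50.2 in HS7 and 60.3, 101 and 165 in CS7 (-3.16). The stress-inducible linker histone gene *H1.3* was the clear exception, with 148, 243 and 659 in HS7 and 18.2, 35.2 and 53.9 in CS7 (3.01 ± 0.33), beside *HTA8* (1.12).

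Genes of small RNA pathways were followed because polymerase IV acts in them. Of 9 Argonaute genes tested, whose products carry small RNAs, 5 were higher and none lower. *AGO9* had 620, 709 and 983 in HS7 and 92.5, 162 and 324 in CS7 (log2 fold change 2.12 ± 0.23, SE; limma adjusted p = 9.71e-09), and *AGO5* had 296, 382 and 518 in HS7 and 17.2, 98.5 and 173 in CS7 (2.37 ± 0.35). Neither overlapped between the groups, whereas *AGO3* (3.05), *AGO6* (2.24) and *AGO7* (1.60) rose with overlapping libraries. *AGO4*, a main effector of RNA-directed DNA methylation, had 271, 319 and 450 in HS7 and 193, 293 and 382 in CS7 (0.20, not called). Of 19 genes of polymerases IV and V and RNA-directed DNA methylation, 2 were higher and 1, *NRPD1* itself, lower, against 12% and 22.2% of all genes, and 1 was higher and none lower without the 3 HS7 libraries. *CLSY3*, a chromatin remodeler that recruits polymerase IV, had 282, 508 and 634 in HS7 and 25.1, 42.7 and 95.6 in CS7 (3.18 ± 0.27, limma adjusted p = 1.35e-10), without overlap. The other, *RDM1* (1.21), lost its call under many settings, and of 7 further small RNA genes *SGS3*, which protects templates of the RNA-dependent RNA polymerase, had a log2 fold change of 0.82, below the threshold of size (limma adjusted p = 0.0464).

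Among 18 genes of methylation maintenance and heterochromatin, 1 was higher and 3 lower, against 12% and 22.2% of all genes. *CMT2*, the methyltransferase of non-CG sites in long TEs, had 9.32, 71.6 and 173 in HS7 and 99.1, 221 and 247 in CS7 (log2 fold change -1.56). *SUVH6*, a histone H3K9 methyltransferase gene, had 0, 5.6 and 21.2 in HS7 and 27.7, 63.2 and 126 in CS7 (-3.17), and *MET2* fell by 3.49 on the log2 scale at low counts. The histone deacetylase gene *HDA6* rose (1.46). Of the 4 DNA demethylase genes, *DME* had 134, 275 and 511 in HS7 and 532, 697 and 983 in CS7 (-1.51), and *DML3* had 0, 0 and 12.4 in HS7 and 23.1, 35 and 143 in CS7 (-4.52). *ROS1*, whose expression needs methylation of its promoter, had 0.657, 23.5 and 110 in HS7 and 0, 37.8 and 72.4 in CS7 (-0.21, not called). *SDC*, a gene silenced by methylation, was at 0, 0.259 and 14.4 in HS7 and 0, 11.5 and 86 in CS7, and its lower call (-2.32) was lost in edgeR and without CS7 replicate 5.

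Genes of the shoot meristem did not move together, with 5 of 26 higher and 4 lower, against 12% and 22.2% of all genes. *STM*, the homeobox gene that keeps meristem cells undifferentiated, had 396, 493 and 546 in HS7 and 72.9, 126 and 176 in CS7 (log2 fold change 2.03 ± 0.19, SE; limma adjusted p = 1.16e-09). *LSH3* and *CUC1*, genes of organ boundaries, had 68.3, 107 and 156, and 45.4, 75.5 and 95.6 in HS7, against 1.54, 13.1 and 33, and 2.03, 16.8 and 40.1 in CS7 (3.18 and 2.29). These 3 genes did not overlap between the groups, and *PNF*, a BELL homeobox gene and partner of *STM*, rose too (2.15). *WUS*, the gene that specifies stem cells from the cells beneath them, had 0, 24 and 147 in HS7 and 0, 0 and 21.8 in CS7 (3.10, a call lost without the 3 HS7 libraries). *KNAT1*, a homeobox gene of the peripheral meristem and stem, had 1.1, 25.8 and 142 in HS7 and 139, 222 and 340 in CS7 (-3.01), and *LAS* (-3.77), *BAM2* (-2.26) and *ATH1* (-1.11) were lower. Of 17 cytokinin genes, none was higher and 12 were lower in limma, with a median of -2.40, whereas edgeR called 1 higher and 9 lower. *ARR5*, a response regulator gene that cytokinin induces, had 0, 0 and 19.8 in HS7 and 45.6, 103 and 210 in CS7 (-5.64 ± 0.69), and *ARR4* had 0, 24.9 and 52.4 in HS7 and 189, 214 and 254 in CS7 (-4.03 ± 0.66). The biosynthesis gene *IPT3* (-5.64) and the degradation gene *CKX5* (-3.83) fell as well.

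Of 47 nuclear genes for photosynthesis, 43 were lower and none higher with limma and with edgeR alike (22.2% and 13.1% of all genes were lower). Their summed level was 15174 to 18596 in HS7 and 156531 to 196135 in CS7. *LHCB1.1*, of the light-harvesting complex of photosystem II, had 11.8, 74.1 and 139 in HS7 and 11918, 13606 and 15897 in CS7 (log2 fold change -7.87 ± 0.38, SE; limma adjusted p = 1.56e-10), and shares most of its sequence with other *LHCB1* genes, so that reads may be split among them. *LHCB1.4*, with no such copy found, had 2.19, 43.9 and 67.2 in HS7 and 4166, 4993 and 5818 in CS7 (-7.23 ± 0.51). *LHCB2.3* (-7.20) and *LHCB2.1* (-6.64) fell likewise, and 2 of the 4 that were not called were *PSBO2* (-0.83) and *PSBS* (-0.79). In a bulk of nuclei, fewer cells of a type and less RNA per cell cannot be told apart, which holds for all results given here.

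Of 19 genes of the circadian clock, 6 were higher and 9 lower. *CCA1* and *LHY*, which encode related MYB repressors, had 0, 0.473 and 8.54, and 0, 2.41 and 4.67 in HS7, against 222, 264 and 425, and 182, 211 and 318 in CS7 (log2 fold changes -7.13 ± 0.58 and -6.31 ± 0.52, SE). *LNK2*, a coactivator gene of the clock, had 1.56, 19.7 and 70.9 in HS7 and 2918, 3233 and 3627 in CS7 (-7.61 ± 0.50; limma adjusted p = 2.26e-09), and *PRR9* (-5.79), *RVE8* (-5.28) and *CHE* (-3.89) fell too. None of these 6 overlapped between the groups. The higher genes were *FKF1* (4.11), *PRR3* (3.37), *PRR5* (3.36), *ELF4* (3.01), *GI* (1.24) and *LUX* (1.00). *FKF1*, for example, had 1.09, 49.2 and 145 in HS7 and 0, 0.584 and 2.79 in CS7, and *PRR5* had 4.59, 50.2 and 80.1 in HS7 and 0, 2.09 and 13.5 in CS7. The evening element, AAAATATCT on either strand (AGATATTTT on the other), stood in 4 of the 19 promoters (21.1%), against 2.36% of all promoters of this length, and the palindrome CACGTG in 5 (26.3%, against 6.49%). The sources used here do not state the hour at which each library was collected, and its part in the result was not tested.

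Other stress pathways gave mixed counts, to be read against 12% higher and 22.2% lower among all genes. Of 20 genes of immune signalling, 3 were higher and 3 lower (1 lower in edgeR), led by *FLS2*, the flagellin receptor, with 5.9, 67.3 and 255 in HS7 and 650, 728 and 871 in CS7 (log2 fold change -3.55), and by *CYP79B2*, of camalexin and glucosinolate synthesis (3.07). Of 13 genes of touch, wounding and jasmonate, 4 were higher and 2 lower. *VSP2* had 15.9, 36.5 and 145 in HS7 and 0, 0 and 7.71 in CS7 (5.05), *AOC2*, of jasmonate synthesis, had 54.7, 128 and 230 in HS7 and 0, 7.8 and 14.9 in CS7 (4.23), and *JAZ5* rose as well (4.54), while the calmodulin-like gene *TCH2* fell (-2.04). Of 10 hypoxia genes, *PDC1* (2.61, lost without HS7 replicate 1, 2, 4 or 8) and *SUS1* (1.60) were higher, and *PCO1*, an oxygen-sensing cysteine oxidase gene, fell to 0, 11.3 and 46.2 in HS7, against 128, 149 and 189 in CS7 (-4.08). Of 9 genes of abscisic acid and dehydration, *RD29A* had 72.1, 111 and 303 in HS7 and 0, 1.49 and 8.11 in CS7 (5.54), and *ABF3*, a bZIP factor of abscisic acid signalling, had 53.3, 103 and 215 in HS7 and 679, 854 and 1074 in CS7 (-2.96). Of 13 common reference genes, 3 were higher and 2 lower, against 12% and 22.2% of all genes. *ACT2* had 28, 85.8 and 290 in HS7 and 619, 691 and 841 in CS7 (-3.06), *GAPC2* 527, 591 and 880 in HS7 and 1592, 2129 and 2572 in CS7 (-1.75), and *EF1A* 1408, 2067 and 2350 in HS7 and 472, 593 and 860 in CS7 (1.69).

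Markers of other cell types of the shoot were followed because nuclei of a sort can be mixed. Over all nuclear genes tested, 22.2% were lower in limma and 13.1% in edgeR. All 5 tested genes of the stomatal lineage were lower in limma and 2 in edgeR, with a summed level of 0.581 to 130 in HS7 and 74.6 to 374 in CS7, and *SPCH*, which starts the lineage, had 0, 0 and 12.6 in HS7 and 12.9, 41.8 and 78 in CS7 (log2 fold change -4.39). *MUTE* and *EPF1* were too low to be tested. Of 7 markers of vasculature, 4 were lower (2 in edgeR), with sums of 62.8 to 219 in HS7 and 220 to 377 in CS7. Of 11 genes of leaf polarity and primordia, 6 were lower (4 in edgeR, where 1 was higher), yet their sums of 1232 to 2012 in HS7 and 1201 to 1875 in CS7 overlapped. Of 5 epidermal markers, *ATML1* alone was lower (-1.14, a call lost in edgeR and without HS7 replicate 3 or 4), with sums of 1517 to 1882 in HS7 and 1432 to 1965 in CS7. The stem cell layers include epidermis. No tested marker of these 4 lists was at 0 in every library of a group, and their part in the heat response was not tested.

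TEs gave the largest changes of the features named here. The *ONSEN* copies, which the study chose for their heat response so that their direction is no independent result, were followed one by one. *AT1TE12295* had 14157, 16965 and 24883 in *poliv* HS7 and 0, 0 and 21.3 in CS7 (log2 fold change 12.63 ± 0.71, SE; limma adjusted p = 1.73e-09). *AT1TE71045* had 6026, 8136 and 9931 in HS7 and 0, 0 and 5.58 in CS7 (12.60 ± 0.34), and *AT1TE59755* had 7027, 7565 and 9416 in HS7 and 0, 0 and 19.9 in CS7 (12.37 ± 0.46; 4.07 with an adjusted p of 0.126 in DESeq2, where it was not called). *AT3TE92525* (11.55), *AT3TE89830* (11.32) and *AT5TE15240* (11.01) were in the same range, and *AT3TE54550* had 252, 431 and 600 in HS7 and 0, 0 and 4.49 in CS7 (7.97). *AT1TE24850* stood apart, since it was transcribed without heat, with 180, 357 and 539 in HS7 and 10.1, 19.3 and 40.5 in CS7 (3.89 ± 0.32). Together, the 8 copies had 51188, 57348 and 75574 in HS7 and 19.8, 54.6 and 91.1 in CS7. The copies are near-identical to each other, and how reads that fit several of them were counted is not given in the sources used here, so the sum is firmer than the split.

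The TEs of the largest fall had no family name in the tables used here. *AT4TE42860* had 0, 1.24 and 43 in HS7 and 571, 708 and 862 in CS7 (log2 fold change -7.71 ± 0.64, SE), and *AT4TE42880*, numbered close to it, had 0, 12.6 and 26.3 in HS7 and 669, 819 and 1065 in CS7 (-6.89). *AT5TE18970* was at 0 in all HS7 libraries and had 61.7, 135 and 215 in CS7. *AT5TE48740* (-7.53), *AT1TE71790* (-7.25) and *AT1TE71825* (-7.22) completed the 6, which were picked among called TEs without overlap between the groups. TEs called higher were 21 of 148 tested on chromosome 1, 31 of 147 on chromosome 2, 31 of 165 on chromosome 3, 16 of 116 on chromosome 4 and 33 of 168 on chromosome 5. Those of chromosome 2 were not spread evenly, since 20 tested TEs in a row by locus number, *AT2TE14150* to *AT2TE15415*, were all called higher (19 of them by edgeR), with a median log2 fold change of 3.96. On the other chromosomes the longest such runs held 2 to 4 TEs. The runs were looked for after the values were seen. Chromosome 2 also holds the mitochondrial insertion described below, and no TE coordinates were used to place the run against it. Whether reads of mitochondrial or other transcripts fall on these TEs was not tested.

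As a share of all reads, TEs took 5.82 ± 1.75% in *poliv* HS7 and 2.38 ± 1.47% in *poliv* CS7 (SD, n = 8 each; two-sided exact permutation test, p = 0.00186). Much of the spread came from 2 TEs whose share varied widely within both groups. *AT4TE15950* took 0 to 51.7% of the TE reads in HS7 and 1.17 to 40.7% in CS7, and *AT1TE48050* 2.19 to 30.8% in HS7 and 1.25 to 43.7% in CS7. Without them, a setting chosen after the values were seen, TEs took 3.44 ± 0.369% in HS7 and 1.06 ± 0.0634% in CS7 (exact permutation test, p = 0.000155). The *ONSEN* copies made up 27.0 to 57.6% of all TE reads in HS7 (median 33.1%) and 0.0148 to 0.219% in CS7. With the 8 copies left out as well, 1.33 ± 0.173% in HS7 and 1.06 ± 0.0632% in CS7 remained, a difference of 0.267 percentage points (exact permutation test, p = 0.00124). That share was taken over all reads, of which organelle genomes held a mean of 18.1% in HS7 and 26.9% in CS7. Ribosomal RNA held 14.4% in HS7 and 22.5% in CS7. Whether these remaining TEs changed relative to nuclear genes alone was not tested. Without organelle-encoded genes and ribosomal RNA in the total, all TEs took 8.63% in HS7 and 4.80% in CS7 (p = 0.0235, exact permutation test).

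The shares of reads from the 2 organelle genomes differed in opposite directions. Together they took 18.1 ± 2.53% of the reads in HS7 and 26.9 ± 2.71% in CS7 (SD, n = 8 each; two-sided exact permutation test, p = 0.000311). Chloroplast genes took 15.2 ± 2.36% in HS7 and 26.5 ± 2.72% in CS7, whereas mitochondrial genes took 2.89 ± 0.510% in HS7 and 0.445 ± 0.0761% in CS7 (p = 0.000155 for each, exact permutation test). The lowest mitochondrial share in HS7, 1.87%, was above the highest in CS7, 0.612%. Looking at each genome by itself was decided after its values were seen. Of 101 mitochondrial genes tested, 80 were higher and 1, *ATMG00500* (log2 fold change -2.58), was lower, with a median of 3.56, and in 59 of the 80 no libraries overlapped. Of 114 chloroplast genes, 2 were higher and 65 lower, with a median of -1.46. edgeR gave 79 higher and 2 lower mitochondrial genes and 2 higher and 64 lower chloroplast genes. wt nuclei had a mitochondrial share of 2.99 to 3.79% in HS7 and 0.296 to 0.473% in CS7, and *poliv* seedlings of 7.25 to 10.7% in HT7 and 0.494 to 1.13% in CT7. Where in the preparation these reads come from was not tested.

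A block of nuclear genes moved with the mitochondrial ones. Of 83 tested genes whose locus names begin with AT2G07, near the centromere of chromosome 2 (chr2:3239693-3502294 for the genes with a mitochondrial copy), 65 were higher and 3 lower, with a median log2 fold change of 2.98 (63 and 1 with edgeR). A copy of the mitochondrial genome is known to be inserted there. In the reference, 74 of the 83 had a copy in the mitochondrial genome that was at least 95% identical over most of their length, among them 63 of the 65 that were called higher and 11 of the other 18. Counts of these genes may hold reads of mitochondrial transcripts, and they make up 65 of the 2182 nuclear genes called higher. Whether the same holds for the run of higher TEs on chromosome 2, given above, was not tested. *MCM5* (AT2G07690), given above, lies in the same series of locus names and had no such copy.

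The question of whether polymerase IV shapes the heat response was put by comparing *poliv* with wt stem cell nuclei. In wt, heat gave higher levels in 12% and lower levels in 23.1% of tested genes, and in 17.7% and 38.3% of tested TEs. Most calls were shared, since of 2144 genes higher in *poliv* among those tested in both, 1450 were also higher in wt (67.6% of the *poliv* list, 67% of the wt list), and of 3949 lower genes, 2853 were (72.2% and 69.5%). For TEs, 96 higher calls (88.1% and 88.9%) and 148 lower calls (82.7% and 73.3%) were shared, and calls in opposite directions were 2 in each direction among genes and 0 among TEs. The log2 fold changes had a Pearson r of 0.852 over 18453 features, a description across features that are not independent. In a test of the difference itself, 5 of 18327 genes (0.0273%) had a higher and 20 (0.109%) a lower log2 fold change in *poliv*, with 4 (0.541%) and 16 (2.16%) of 740 TEs.

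**Figure D3:**
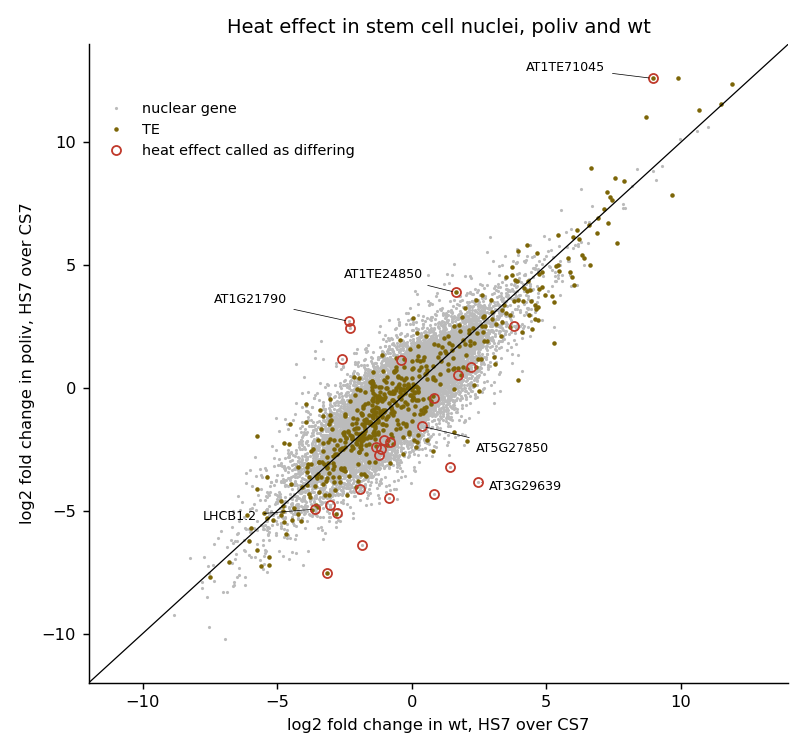
Log2 fold change in heat in *poliv* stem cell nuclei (HS7 over CS7) against that in wt stem cell nuclei for features tested in both, with circles around those whose difference between the genotypes was called. The cloud follows the diagonal (r = 0.852), and *AT1TE71045*, *AT1TE24850* and *AT1G21790* lie on the side of a larger rise in *poliv*, while *AT3G29639*, *AT5G27850* and *LHCB1.2* lie on the other.

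The *ONSEN* copies *AT1TE71045* and *AT1TE24850* rose more in *poliv*. *AT1TE71045* had 6026, 8136 and 9931 in *poliv* HS7 and 445, 696 and 889 in wt HS7, with medians of 0 in both CS7 groups (difference of log2 fold changes 3.65 ± 0.60, SE; limma adjusted p = 0.000328; 0.0573 in edgeR). *AT1TE24850* had 180, 357 and 539 in *poliv* HS7 and 10.1, 19.3 and 40.5 in *poliv* CS7, against 32.4, 84.6 and 169 in wt HS7 and 17.2, 23.5 and 38.1 in wt CS7 (2.26 ± 0.49, adjusted p = 0.0168; 0.0109 in edgeR). In neither copy did a wt HS7 library reach the lowest *poliv* HS7 library. The sum over all 8 copies was 51188 to 75574 in *poliv* HS7 and 16905 to 30240 in wt HS7, and in CS7 it was 19.8 to 91.1 in *poliv* and 31.1 to 93.7 in wt, so that the genotypes did not overlap in HS7 and overlapped in CS7 (the sum was not tested). *AT2G19910*, annotated as an RNA-dependent RNA polymerase family gene, had 250, 334 and 523 in *poliv* HS7 and 103, 147 and 247 in *poliv* CS7, against 90.7, 133 and 297 in wt HS7 and 137, 191 and 269 in wt CS7 (1.53 ± 0.32, adjusted p = 0.0134; 0.0532 in edgeR). The other genes on this side were *AT1G21790* (5.04), the transporter gene *ABCG18* (4.75), the methionine sulfoxide reductase gene *MSRB7* (3.94) and *AT3G48810* (3.79), all at low counts and none called by edgeR, and the TEs *AT4TE19550* (5.14) and *AT4TE21070* (4.22) were high in wt CS7 only. edgeR called neither TE. *AT3G48810* lost its call under 23 of the alternative settings, *AT4TE21070* under 8 and *AT1G21790* under 7.

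The 16 TEs with a lower log2 fold change in *poliv* were detected in unstressed *poliv* nuclei and were at or near 0 in most other libraries. *AT3TE63950* had 4.37, 25.8 and 69 in *poliv* HS7 and 367, 517 and 715 in *poliv* CS7, against 0, 0 and 15.7 in wt HS7 and 0, 0 and 4.21 in wt CS7 (difference -4.79 ± 0.90, SE; limma adjusted p = 0.00292; 0.0178 in edgeR). *AT4TE15255* had 0, 0 and 0.73 in *poliv* HS7 and 13.9, 38.6 and 113 in *poliv* CS7, against 0, 0 and 12 in wt HS7 and 0 in all wt CS7 libraries (-5.73 ± 0.85; 0.00155 in edgeR). Across the 16, medians ranged from 0 to 25.8 in *poliv* HS7 and from 27.9 to 517 in *poliv* CS7, while wt CS7 medians were 0 to 3.94 but for *AT5TE48740* (21.4). Where wt CS7 was at or near 0 a fall in wt could not be measured, and the difference between the genotypes then reads the level without heat. Several carried consecutive or near numbers, such as *AT4TE20120*, *AT4TE20125* and *AT4TE20130*, or *AT5TE50245* and *AT5TE50255*, and overlapping transcripts were not separated. Of the 16, edgeR called 4, *AT3TE63950*, *AT4TE15255*, *AT4TE09800* (adjusted p = 0.0141) and *AT5TE35950* (adjusted p = 0.0173), and beside them *AT1TE71825* (adjusted p = 0.00929), which limma did not call. *AT5TE24040* lost its call under 32 of the alternative settings, *AT2TE08110* under 28, *AT5TE48740* under 13 and *AT5TE47755* under 12.

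Genes followed the same scheme in part. *AT3G29639* had 2.18, 33.2 and 72.9 in *poliv* HS7 and 227, 289 and 430 in *poliv* CS7, against 0, 8.03 and 28.5 in wt HS7 and 0, 0 and 5.16 in wt CS7 (difference -6.30 ± 0.99, SE; limma adjusted p = 0.000127). *AT5G27850*, a ribosomal protein gene of the L18e family (chr5:9873067-9874973), had 560, 667 and 1110 in *poliv* HS7 and 1743, 2055 and 2605 in *poliv* CS7, against 503, 685 and 860 in wt HS7 and 390, 522 and 632 in wt CS7 (-1.94 ± 0.18, adjusted p = 1.02e-09). The *poliv* HS7 libraries of this gene thus overlapped with wt, and the *poliv* CS7 libraries did not. *AT1G04425* (-4.55) had 87.9, 145 and 367 in *poliv* CS7 and 4.39, 28.5 and 45.7 in wt CS7, and *CHX20* (-5.15), *AT5G05350* (-4.63), *MRU1* (-3.67) and *AT3G26240* (-3.66) were not called by edgeR. The other genes had a larger fall or a smaller rise in *poliv*. *APL1*, a large subunit of the starch enzyme ADP-glucose pyrophosphorylase, had 9.87, 25.8 and 67.4 in *poliv* HS7 and 341, 486 and 664 in *poliv* CS7, against 103, 119 and 160 in wt HS7 and 360, 426 and 677 in wt CS7 (-2.20 ± 0.38; 0.00155 in edgeR). *GOX1*, a glycolate oxidase gene of photorespiration, had 211, 278 and 507 in *poliv* HS7 and 594, 739 and 1093 in wt HS7 (-1.42), and *LHCB1.2* (-1.33), *GAPA* (-1.10) and *CP12-1* (-1.10) of the Calvin cycle and its regulation differed likewise. *CPN60A*, the chloroplast chaperonin gene, had 872, 1031 and 1191 in *poliv* HS7 and 444, 558 and 735 in *poliv* CS7, against 1269, 1879 and 2169 in wt HS7 and 318, 403 and 517 in wt CS7 (-1.33), and the starch degradation gene *SEX1* (-1.20) had medians of 332 in *poliv* HS7 and 686 in wt HS7, with 245 in *poliv* CS7 and 202 in wt CS7. The chloroplast superoxide dismutase gene *FSD1* differed by -1.21. *GER1* (-2.31), *AT3G01490* (-1.72), *TIP2* (-1.48), *CWLP* (-1.35) and the clock-controlled RNA-binding protein gene *GRP7* (-1.28) completed the 20. *MRU1* lost its call under 34 of the alternative settings, *AT3G26240* under 32, *AT5G05350* under 22, *CWLP* under 17 and *GER1* under 5. Most of these settings left out 1 library, and edgeR was among them for all but *CWLP*.

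**Figure D4:**
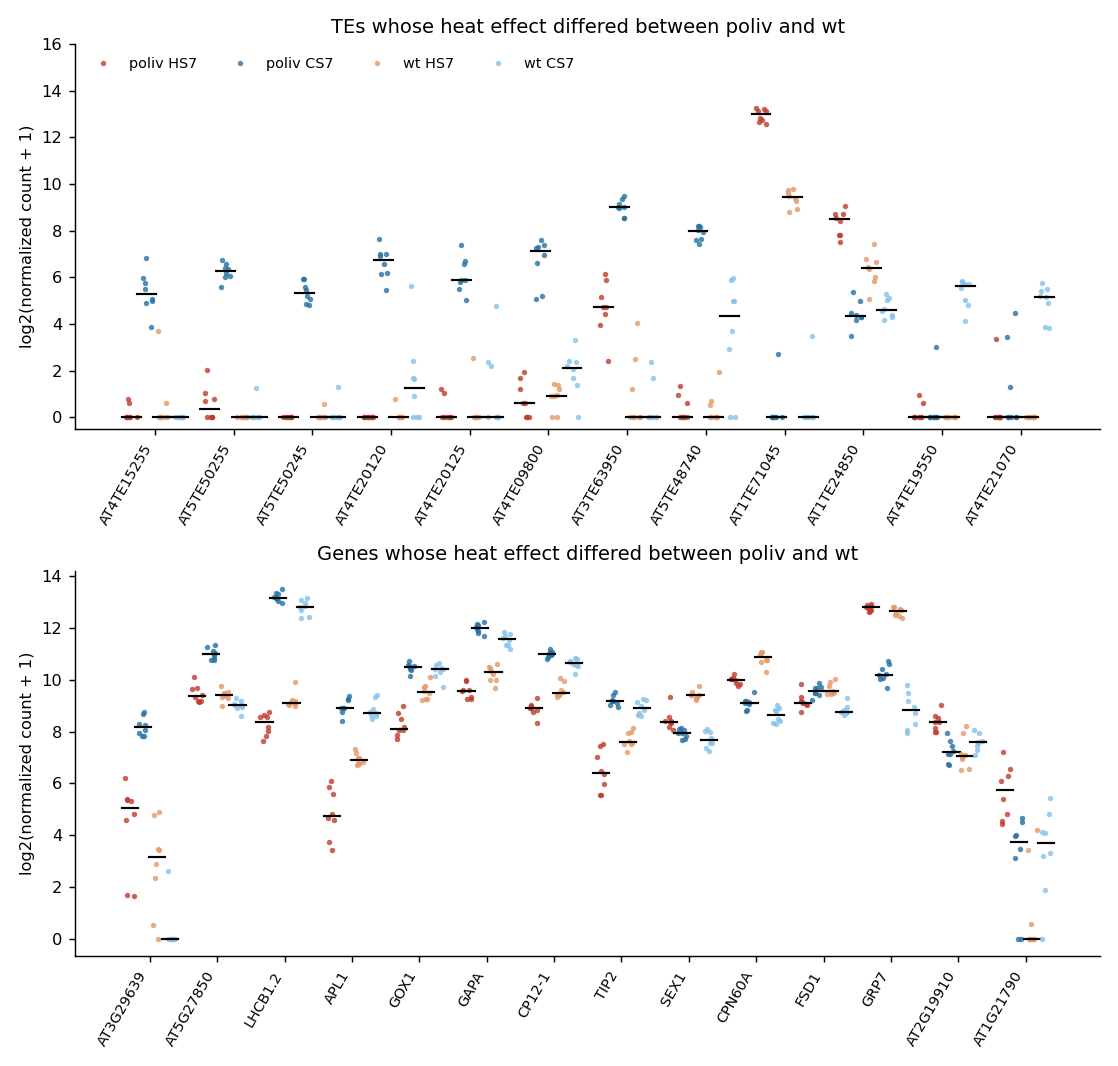
Log2(normalized count + 1) of single libraries for 12 TEs and 14 genes whose heat response differed between *poliv* and wt, in the order *poliv* HS7, *poliv* CS7, wt HS7 and wt CS7, with bars at the medians. Most of the TEs are high in *poliv* CS7 alone, whereas *AT1TE71045* is near 0 in both CS7 groups and higher in *poliv* HS7 (median 8136) than in wt HS7 (median 696).

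Whole seedlings of *poliv* responded more strongly than stem cell nuclei in the classical heat genes. Nuclei and tissue differ in the type of RNA and, by the methods, in the version of the library kit, so only their heat responses were compared, and that difference between the preparations cannot be told apart from the cells. Of 18267 genes, 1676 (9.18%) had a higher and 2213 (12.1%) a lower log2 fold change in nuclei than in seedlings, and of 653 TEs, 22 (3.37%) and 209 (32%). None of 13 cytosolic small heat shock protein genes had a higher and 11 a lower log2 fold change in nuclei, with a median difference of -4.24. With edgeR, 4 of these 11 were called, and the differences of *HSP17.4*, *HSP17.6B*, *HSP17.6C*, *HSP17.6II* and *HSP18.2*, at or near 0 in the CS7 libraries, were not. Likewise 10 of 13 HSP70 genes, 8 of 9 HSP90 and HSP100 genes and 14 of 20 co-chaperones and heat memory genes were lower in nuclei and none higher, and edgeR called 9, 8 and 13 of these lists lower. *ROF2* had 511, 889 and 1246 in HS7 and 58.4, 95.9 and 127 in CS7, against 37141 to 57610 in HT7 and 13.5 to 41.1 in CT7 (difference -7.49 ± 0.38, SE; limma adjusted p = 1.61e-15). *HSP101*, not called in nuclei, had a log2 fold change of 6.27 in seedlings, with 1895 to 2852 in HT7 and 26.5 to 32.1 in CT7 (difference -5.40 ± 0.40). For genes at 0 in the controls the size depends on the scale, since *HSP22.0* and *HSP21* differed by -3.17 and -3.35 in limma but by 0.75 and 1.42 in edgeR, where neither was called. The *ONSEN* copies together reached 590131 to 832896 in HT7 and 3.11 to 140 in CT7.

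In other groups the log2 fold change was higher in nuclei than in seedlings. Of 37 histone genes, 26 were higher in nuclei and none lower (median 2.31), and of 16 replication genes, 7 and none. *TSO2* had 85.4, 218 and 332 in HS7 and 24, 74 and 130 in CS7, against 26.8 to 85.9 in HT7 and 666 to 942 in CT7 (difference 5.58 ± 0.49, SE; limma adjusted p = 5.01e-10), and *RNR1* differed in the same way (4.01). *STM* had 396, 493 and 546 in HS7 and 72.9, 126 and 176 in CS7, against 0 to 9.65 in HT7 and 10.9 to 12.4 in CT7 (3.49 ± 0.64). Of 26 meristem genes, 8 were higher in nuclei and none lower, as were all 5 epidermal markers. Of the meristem genes, 18 reached the minimum mean in the seedling libraries alone. These counts of list members higher in nuclei are from limma alone, and their edgeR counts are not given here. At least the differences of the replication gene *MCM4*, of *LSH3* and of the epidermal *ATML1* were not called by edgeR. Clock genes were lower in nuclei in 9 of 19 and higher in none, and photosynthesis genes fell in both, with 11 of 47 higher and 7 lower in nuclei. In seedlings, 21.1% of genes were higher and 27.5% lower, with 49.1% and 12.2% of TEs. Shared calls were 1217 higher genes (60.9% of the list of nuclei and 35.7% of that of seedlings) and 2175 lower genes (61% and 49.5%), with 87 and 95 of the calls in nuclei opposite in seedlings. For TEs, 81 higher calls (89% and 68.1%) and 22 lower calls (36.1% and 62.9%) were shared, with 1 and 7 opposite.

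**Figure D5:**
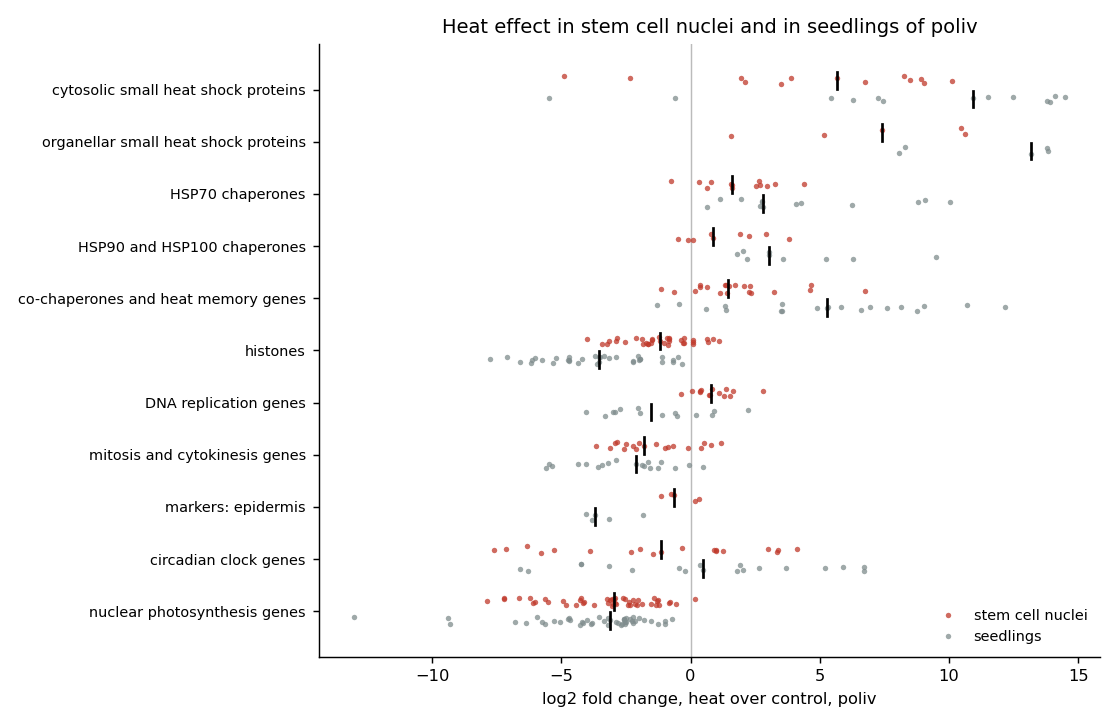
Log2 fold change in heat of the members of 11 gene lists that were tested in both sample types, in *poliv* stem cell nuclei (HS7 over CS7, upper row of each list) and in *poliv* seedlings (HT7 over CT7, lower row). Chaperone lists lie further right in seedlings (cytosolic small heat shock proteins, median difference -4.24), and histone genes lie further left (median difference 2.31).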

How the data were processed

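mRNA libraries of 100 sorted nuclei were made with Smart-seq (version 3 in the methods, version 2 in the labels, which differ also on the photoperiod). Per the methods, reads were taken from bam files with bedtools 2.27, clipped and counted in a nextflow pipeline for RNA-seq over TAIR10 genes and TEs, without TE genes. The deposited values are a signal, namely counts that the authors normalized with DESeq2. Aligner, counter, strand and handling of multiply mapping reads are not given in the sources used here. Of 60886 features, 29417 were nuclear genes, 31189 TEs and 279 organelle-encoded; 52 columns of means and SDs were not used.

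Groups came from the labels. limma 3.58.1 (R 4.3.3; lmFit, eBayes with trend and robust fitting) was run on log2(normalized count + 1) over features with a mean of at least 5, within the groups compared, with Benjamini-Hochberg adjustment over all features of a fit. Differences between heat effects used fits of 4 groups. All values were whole multiples of 1 read within 0.1 (100%), and edgeR 4.0.16 (quasi-likelihood) and DESeq2 1.42.0 on these reads were alternatives, beside pseudocounts of 0.5 and 5, filters, TMM, library weights, a replicate block and leaving out each library. Scripts were tested on simulated data. Named genes were the 10 genes and 6 TEs of largest change in each direction, list members, and features called as differing. The 10 genes and 6 TEs were ranked only among called features whose HS7 and CS7 libraries did not overlap. Members and the 31 lists were chosen with earlier results of these data known. Promoters came from RefSeq (TAIR10.1; 28929 genes matched).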

Additional observations from a re-analysis of the deposited data

Results flagged for a closer look

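In 9 of 76 groups of values 1 library lay far from the others of its group, where chance flags about 1 in 20. These were the highest *poliv* CS7 library for total reads (4460152) and for nuclear genes with a read (20970), *AGO3* in *poliv* HS7 replicate 2 (0.519), *NRPD1* in HS7 replicate 6 (2.18), the *ONSEN* copies *AT1TE12295* (24883) and *AT1TE59755* (9416) in the same replicate, *SEN1* in HS7 replicate 2 (16.6), *AT2G20670* in CS7 replicate 8 (603) and *ROS1* in CS7 replicate 5 (0).

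The heat effect differed between *poliv* and wt stem cell nuclei by the limma test of the difference, with these differences of log2 fold changes (*poliv* minus wt). It was higher in *poliv* for *AT4TE19550* (5.14), *AT1G21790* (5.04), *ABCG18* (4.75), *AT4TE21070* (4.22), *MSRB7* (3.94), *AT3G48810* (3.79), *AT1TE71045* (3.65), *AT1TE24850* (2.26) and *AT2G19910* (1.53). It was lower for *AT3G29639* (-6.30), *AT4TE15255* (-5.73), *AT5TE50255* (-5.50), *AT5TE50245* (-5.26), *AT4TE20120* (-5.18), *CHX20* (-5.15), *AT4TE20125* (-4.97), *AT4TE09800* (-4.84), *AT4TE09795* (-4.81) and *AT3TE63950* (-4.79).

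Between *poliv* stem cell nuclei and *poliv* seedlings, the heat effect differed most, in the direction of a higher log2 fold change in nuclei, for *ZW9* (8.56), *AT4G22510* (7.01), *AT4TE54820* (6.87), *CAD9* (6.74), *SPL13B* (6.69), *IPMI2* (6.34), *AT5G38940* (6.30) and *AT1G58684* (6.25). *CAD9*, of the cinnamyl alcohol dehydrogenase family, had 160, 374 and 465 in HS7 and 60.8, 105 and 145 in CS7, against 52.2 to 84.5 in HT7 and 1590 to 2322 in CT7. *AT4TE54820* was at 0 in all S7 libraries, and *SPL13B* and *AT1G58684* have near-identical copies. The differences of *AT4TE54820*, *SPL13B*, *AT5G38940* and *AT1G58684* were not called by edgeR. It was lower in nuclei for *AT2G01008* (-8.42), *AT4G36988* (-8.41), *AT1G21940* (-8.34), *AT2G16586* (-8.09), *AT4G16540* (-8.06), *AT5G10340* (-7.90), *AT3G51632* (-7.53) and *ROF2* (-7.49). *AT4G16540*, of the family of small heat shock proteins, went in opposite directions, with 0, 0.473 and 33.8 in HS7 and 44.6, 71.5 and 162 in CS7, against 222 to 499 in HT7 and 4.67 to 96.3 in CT7. *AT2G01008* and *AT2G16586* have near-identical copies as well, and the difference of *AT1G21940* was not called by edgeR.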

How the results depend on the processing

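In *poliv* nuclei, edgeR called 2390 genes lower, the absence of a filter gave 481 TEs lower, and a mean of at least 20 gave 70 TEs higher and 112 lower. Leaving out 1 library gave 2074 to 2211 genes higher and 3715 to 4077 lower, and 122 to 130 and 218 to 258 TEs. Replicate numbers did not pair the libraries (correlations of -0.000689 to 0.0147), and a replicate block gave 2141 genes higher and 4030 lower. For *poliv* minus wt, a pseudocount of 5 gave 11 genes and 8 TEs higher, no filter 8 TEs higher and 25 lower, a mean of at least 20 gave 3 genes higher and 2 TEs higher and 6 lower, and edgeR 1 TE higher and 5 lower. Without HS7 replicates 6, 7 and 8, a setting chosen after seeing the data, 10 genes were higher. Without 1 library, 3 to 8 genes were higher, with 3 without wt CS7 replicate 7 or *poliv* CS7 replicate 5 or 7 and 8 without wt HS7 replicate 2, 4, 5 or 8 or *poliv* HS7 replicate 4. For nuclei minus seedlings, a pseudocount of 5 gave 36 TEs higher, no filter 35 higher and 403 lower, a mean of at least 20 gave 13 and 102, and edgeR 840 genes higher and 1178 lower and 10 and 62 TEs. In edgeR the sign changed for *MRU1* in *poliv* minus wt (0.15) and for *HSP22.0* (0.75) and *HSP21* (1.42) in nuclei minus seedlings. The cause was not tested, and none of the 3 was called there. The difference in TE share was 3.11 to 3.77 percentage points and that in organelle share -9.52 to -8.25 with 1 library left out.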
